A study of Homo sapiens with 6 samples.

Results

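These data describe 22 genes of calcium and ion channels in cells of the established human glioblastoma line U-87 MG after exposure to targeted electromagnetic fields. The genes were taken by symbol from the array's annotation: those that begin with TRPA, TRPC, TRPM, TRPV, TRPML, ORAI, STIM, KCN, SCN, CLCN, ITPR, RYR, ATP2A or ATP2B (with a digit next after the TRP, STIM, SCN and ITPR stems). Of 14884 named genes 22 matched. Their symbols do not bear out the group's broad description as transient receptor potential (TRP), potassium and sodium channel genes, because the pore-forming channels among them are the calcium entry channels ORAI1, ORAI2 and ORAI3 and the ryanodine receptors RYR1, RYR2 and RYR3. STIM1 and STIM2 gate the ORAI channels, and 5 genes encode accessory proteins or regulators of potassium channels. The other 9 are antisense, opposite-strand or noncoding genes named after a channel, channel subunit or calcium pump gene. TRP channels, potassium channel pores, sodium channels, CLCN chloride channels, inositol trisphosphate receptors and calcium pumps were not analysed here. The named genes held no such symbol under these stems. The array may still carry probes for them, since 37519 of its 53617 probe sets had no symbol here. Below, a measured gene is one with a symbol in that annotation.

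Total RNA was measured on 1-colour Affymetrix arrays, with 3 exposed and 3 unexposed arrays, each an independent biological replicate per the design text. Every dish was seeded in medium with 10% fetal bovine serum and, after 24 h, allocated at random to 1 of the culture boxes, both kept at 37 °C with 5% CO2. Exposed cells stood in a box inside a Faraday chamber and received the fields (RGFIELDS, aimed at miR-381, mutated alpha-kinase gene ALPK2, HSP70 and CHI3L1) without a break for 54 h. Unexposed cells stood in a box outside the chamber, so the field and the box cannot be told apart. Groups follow the sample titles, while the description of the exposed samples uses the words exposed and control together. All cells are 1 cultured tumour line, so the arrays carry no spread between tumours. In these bulk samples fewer cells of a type and less RNA per cell cannot be told apart.

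Store-operated calcium entry is a main route by which non-excitable cells take up calcium. When the endoplasmic reticulum runs low on calcium, the sensors STIM1 and STIM2 in its membrane cluster beneath the plasma membrane and open the ORAI channels there. The calcium that enters refills the store and can activate calcineurin, a phosphatase that sends NFAT transcription factors to the nucleus. Ryanodine receptors work in the other direction and release calcium from the store. Potassium channel accessory proteins set how many channels reach the membrane and how they gate.

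To show the promoter of the ORAI gene that rose beside relatives whose changes did not pass, the 250 bases before the annotated start are given for ORAI3, ORAI2, STIM2 and, as the noncoding gene with the highest change, KCNQ1DN. They are read 5′ to 3′ on the gene's strand from RefSeq, build GRCh38.p14, in which 20 of the 22 genes had an entry. ORAI1 and KCNQ1OT1 had none, and STIM1 was left out of this display, so the relatives shown are a part of the family. Capitals mark GC boxes (GGGCGG) and E-boxes (CACGTG) on either strand.
ORAI3 (chr16:30948818-30949067, plus strand): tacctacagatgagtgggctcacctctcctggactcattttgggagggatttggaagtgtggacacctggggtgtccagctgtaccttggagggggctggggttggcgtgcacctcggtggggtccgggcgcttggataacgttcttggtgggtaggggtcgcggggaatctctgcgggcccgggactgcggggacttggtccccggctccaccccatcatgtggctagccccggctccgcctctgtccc
ORAI2 (chr7:102433325-102433574, plus strand): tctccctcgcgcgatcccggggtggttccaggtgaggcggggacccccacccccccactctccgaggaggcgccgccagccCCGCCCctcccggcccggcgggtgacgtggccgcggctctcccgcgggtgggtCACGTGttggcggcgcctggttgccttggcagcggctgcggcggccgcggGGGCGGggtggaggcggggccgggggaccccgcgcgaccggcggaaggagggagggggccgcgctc
STIM2 (chr4:26860591-26860840, plus strand): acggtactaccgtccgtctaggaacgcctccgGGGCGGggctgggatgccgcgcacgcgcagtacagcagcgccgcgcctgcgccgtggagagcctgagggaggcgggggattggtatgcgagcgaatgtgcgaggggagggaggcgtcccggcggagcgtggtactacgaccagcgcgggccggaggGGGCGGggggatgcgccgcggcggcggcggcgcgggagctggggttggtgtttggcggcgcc
KCNQ1DN (chr11:2869783-2870032, plus strand): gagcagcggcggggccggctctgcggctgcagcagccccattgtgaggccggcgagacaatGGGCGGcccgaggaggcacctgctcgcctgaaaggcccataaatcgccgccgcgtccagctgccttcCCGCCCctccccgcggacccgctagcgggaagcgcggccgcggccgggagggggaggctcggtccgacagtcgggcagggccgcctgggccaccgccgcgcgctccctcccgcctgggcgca
The ORAI3 stretch held 13 CG dinucleotides and 64.8% G and C, against 35 and 81.2% for ORAI2, 38 and 75.2% for STIM2 and 33 and 77.2% for KCNQ1DN. The medians over 35116 promoters were 11.0 CG dinucleotides and 58.0%. Searches of both strands for the GC box, the E-box, the heat shock element (GAANNTTC) and the cyclic AMP response element (TGACGTCA) found 0 matches for ORAI3. ORAI2 held 1 E-box and 2 GC boxes, STIM2 held 2 GC boxes and KCNQ1DN held 2 GC boxes, and no match overlapped another. Of all promoters 42.6% held a GC box, 6.34% an E-box, 5.78% a heat shock element and 1.65% a cyclic AMP response element. A match is a run of letters and not a measured binding site, and its absence says only that these letters are not in this window.

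Values are log2 expression after RMA (robust multi-array average), for which the array medians lay between 3.96 and 3.99. The table has no detection calls, so a gene at or below those medians may carry little signal above background, and 10 of the 22 genes had such a mean. Markers of mesenchymal glioma (4 of 6 measured) had mean levels of 9.55 to 9.64 on the arrays, among them VIM and CD44. The 3 measured astrocyte markers averaged 3.63 to 3.93. Of these GFAP was above the array medians, at 4.86 in unexposed and 5.21 in exposed cells. AQP4 (2.89 and 3.02) and S100B (3.68 and 3.26) were below them. The microglia markers averaged 7.87 to 8.06, with CD68 at 12.24 in unexposed and 12.30 in exposed cells and CX3CR1 at 3.66 and 3.70. Measured neuron markers averaged 4.55 to 4.80, oligodendrocyte markers 4.17 to 4.39 and endothelium markers 3.80 to 4.23. High values were thus not limited to the mesenchymal glioma markers. Levels of different genes come from different probes and are not comparable. By limma, 0 of the 16 measured markers of glioma, astrocytes, neurons, oligodendrocytes, microglia or endothelium passed between groups, and 3 had an unadjusted p under 0.05. These were GFAP, with a log2 change of 0.35, and S100B (-0.42) and MET (-0.14). All 6 proliferation markers fell, with a median log2 change of -0.55 and mean levels of 8.79 to 9.02 on exposed and 9.39 to 9.59 on unexposed arrays. Their part in the results below was not tested.

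With exposure, 1 of the 22 genes passed the threshold: ORAI3 was higher, 1.35-fold, and 0 genes passed downward. That is 4.55% of the 22, where 3.06% of all 14884 genes passed (1.40% higher and 1.67% lower), by limma with a Benjamini-Hochberg adjusted p under 0.05. Exposed and unexposed values did not overlap for 3 of the 22 genes (13.6%), ORAI3, KCNQ1DN and ATP2A1-AS1, and for 27.0% of all genes. The same 3 had an unadjusted p under 0.05, which 18.9% of all genes had. The median log2 change was 0.02 over the 22 genes and 0.00 over all genes, and the median absolute change was 0.07 against 0.13. Of the 22 genes 13 had positive and 9 negative values, a split that became 18 and 4 when arrays were centred on ribosomal protein genes.

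**Figure D1:**
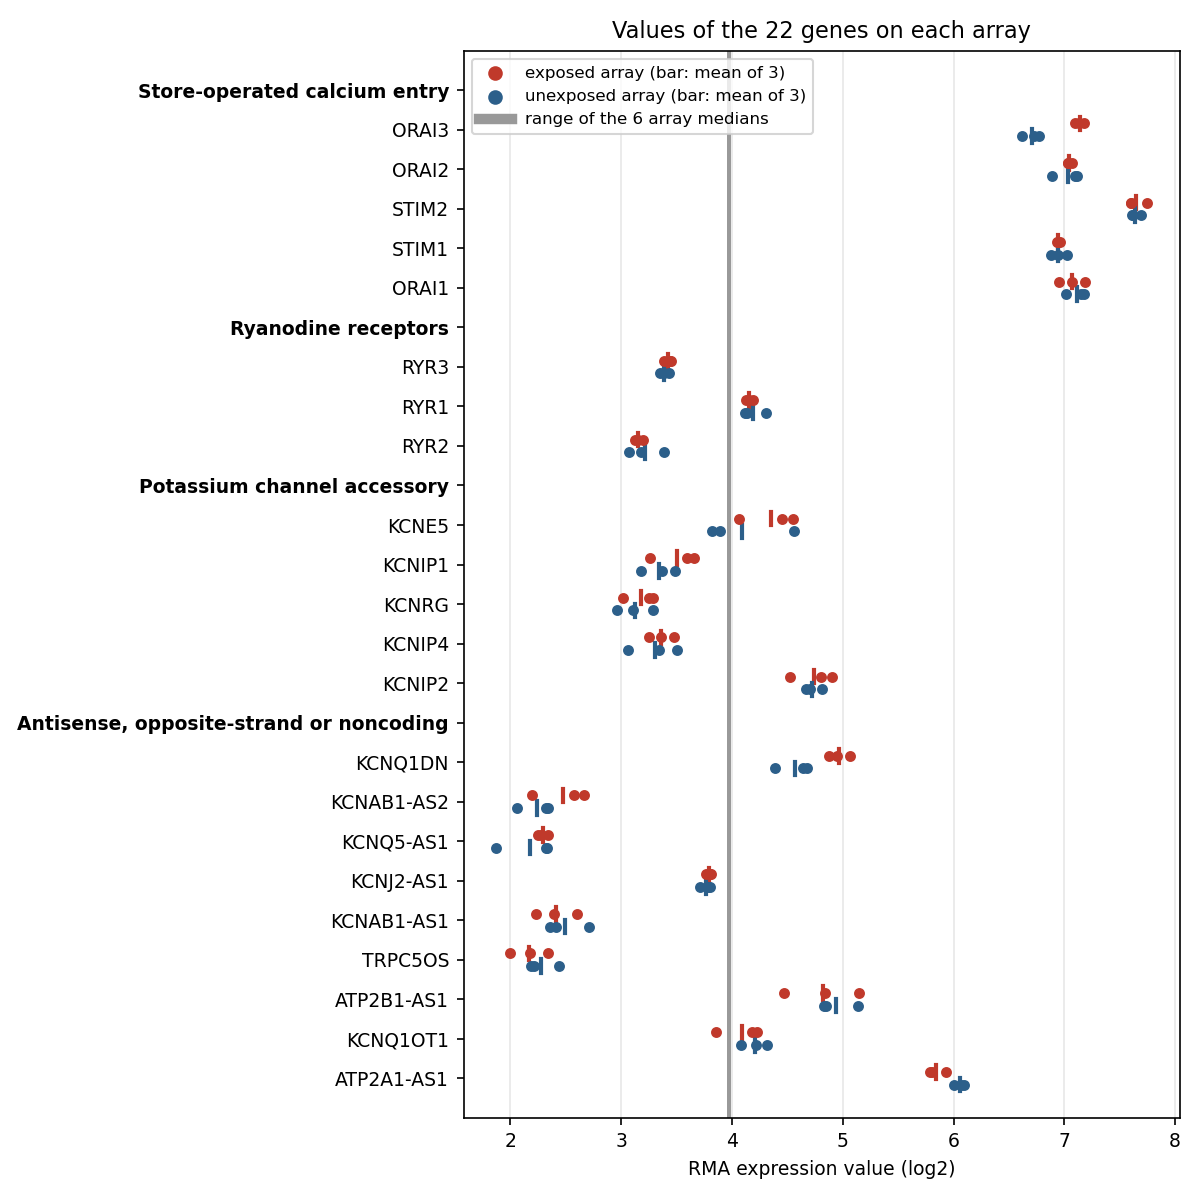
Each point is the RMA value (log2, horizontal axis) of 1 gene on 1 of 6 arrays, red for exposed and blue for unexposed, with a bar at the mean of 3, and genes are grouped by role. ORAI3 has all 3 exposed points above all unexposed ones, and 10 genes have means at or below the grey band of array medians (3.96 to 3.99). Levels of different genes come from different probes and are not comparable with each other.

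ORAI3, a subunit of store-operated channels that also joins ORAI1 in channels opened by arachidonic acid, was at 6.73, 6.62 and 6.77 on unexposed arrays 1 to 3 and at 7.18, 7.10 and 7.13 on exposed arrays 1 to 3. The lowest exposed value lay 0.33 above the highest unexposed one. Group means were 6.71 ± 0.08 and 7.14 ± 0.04 (SD, n = 3 each), and the log2 change was 0.43 (SE 0.07, 95% interval 0.26 to 0.60, limma adjusted p = 0.0336). Of the 208 genes that passed upward, 148 had a larger change than ORAI3, and the median over all 208 was 0.53. ORAI3 missed the threshold when adjusted over all 53617 probe sets (adjusted p = 0.0528). Whichever array was left out the change stayed between 0.39 and 0.47, while the adjusted p was 0.0627 to 0.132, so the call rests on all 6 arrays.

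ORAI1 encodes the main pore of the classical calcium release-activated current, although the RefSeq table used here lists the gene as a transcribed pseudogene beside a protein accession. It was at 7.18, 7.01 and 7.15 on unexposed and 6.95, 7.07 and 7.19 on exposed arrays. Its groups overlapped throughout, and its log2 change was -0.05 (interval -0.25 to 0.16, limma adjusted p = 0.853), or 0.05 if arrays were centred on ribosomal protein genes. ORAI2, which tempers the current carried by ORAI1, was at 6.89, 7.12 and 7.10 on unexposed and 7.07, 7.03 and 7.04 on exposed arrays. The 3 exposed values fell inside the unexposed range, and the log2 change was 0.01 (interval -0.18 to 0.21, limma adjusted p = 0.963).

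STIM1, the sensor that answers strong depletion of the store, was at 6.94, 6.88 and 7.02 on unexposed and 6.93, 6.96 and 6.94 on exposed arrays. Both group means were 6.95, and the log2 change of 0.00 had an interval of -0.17 to 0.17. STIM2, which responds to smaller drops in store calcium, was at 7.61, 7.62 and 7.69 on unexposed and 7.60, 7.75 and 7.61 on exposed arrays. Its groups overlapped, with a log2 change of 0.01 and an interval of -0.15 to 0.18. For ORAI1, ORAI2, STIM1 and STIM2 the intervals thus leave out a change of 0.5 on the log2 scale, which is 1.41-fold, in either direction.

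The change of ORAI3 was set against that of each relative by taking the difference between the probe sets on each array. ORAI3 was picked for this comparison after its values were seen, as the gene that had passed, so the p-values here describe the arrays and are no independent support. It exceeded the change of ORAI1 by 0.48 (SE 0.09), that of ORAI2 by 0.42 (SE 0.10), that of STIM1 by 0.43 (SE 0.04) and that of STIM2 by 0.42 (SE 0.08). In all 4 comparisons the 3 exposed arrays lay above the 3 unexposed ones, and the exact two-sided permutation p was 0.1, and 0.1 after adjustment over the 4. This is the smallest p that 3 against 3 arrays can give, so the design could not reach 0.05, and the 4 comparisons share the ORAI3 values. Without any 1 array the differences ran from 0.33 to 0.54. On the chromosome, the 3 nearest measured genes on each side of ORAI3 had log2 changes of -0.14 to 0.22, and 0 of these 6 passed. This comparison with neighbours was chosen after the values were seen.

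**Figure D2:**
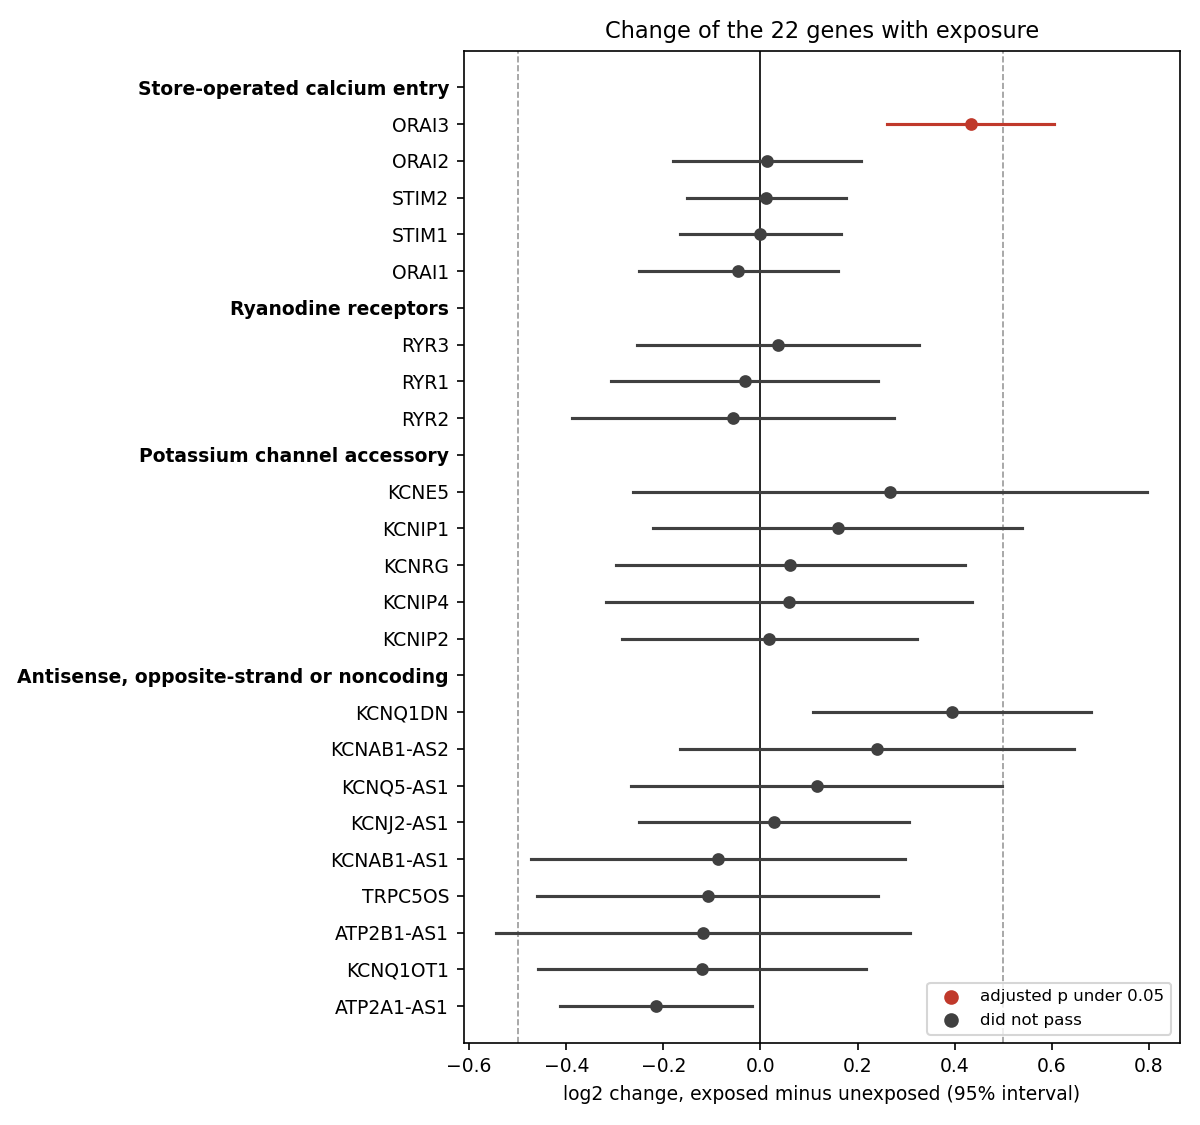
Points are log2 changes, exposed minus unexposed, with 95% intervals from limma for the 22 genes grouped by role, and dashed lines mark changes of 0.5 either way. ORAI3 (0.43, red) is the gene past an adjusted p of 0.05, and 16 of the 22 intervals lie wholly between the dashed lines.

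The ryanodine receptors, large release channels best known from muscle and neurons, had values near or below the array medians. RYR1, the skeletal muscle type, was at 4.19 ± 0.11 in unexposed and 4.16 ± 0.03 in exposed cells (SD, n = 3 each). RYR2, the cardiac type, was at 3.21 ± 0.16 and 3.16 ± 0.04, and RYR3, the broadly expressed type, at 3.39 ± 0.04 and 3.43 ± 0.03. Their log2 changes of -0.03, -0.06 and 0.04 did not pass, all 3 intervals lay within 0.5 of 0, and the negative values of RYR1 and RYR2 became 0.06 and 0.04 when arrays were centred on ribosomal protein genes. RYR2 and RYR3 stood below the array medians, where a change in transcript might not move the signal.

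All 5 potassium channel accessory genes had positive values, 0 passed by limma and 0 had an unadjusted p under 0.05; KCNIP2, KCNIP4 and KCNRG turned negative when single arrays were left out. KCNE5, a single-pass subunit that inhibits KCNQ1 channels, was at 3.89, 3.82 and 4.56 on unexposed and 4.45, 4.06 and 4.55 on exposed arrays. Unexposed array 3 was as high as the highest exposed array, and the other unexposed arrays were below all exposed ones. The log2 change was 0.27 with an interval of -0.26 to 0.80, the widest of the 22 genes (limma adjusted p = 0.609). Leaving out single arrays gave 0.13 to 0.50 (limma adjusted p = 0.266 to 0.871), the highest without unexposed replicate 3 and the lowest without unexposed replicate 2.

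KCNIP1, KCNIP2 and KCNIP4 encode calcium-binding proteins that attach to the A-type potassium channels of the KCND family and help them reach the membrane. KCNIP1 was at 3.34 ± 0.15 in unexposed and 3.50 ± 0.21 in exposed cells (SD, n = 3 each), a log2 change of 0.16 with an interval of -0.22 to 0.54. KCNIP4 and KCNIP2 had changes of 0.06 and 0.02, with intervals of -0.32 to 0.44 and -0.29 to 0.32. KCNIP2 was the gene with a further probe set, which had a change of 0.01. KCNRG, a soluble protein that suppresses voltage-gated potassium channels, had a change of 0.06 (interval -0.30 to 0.42). KCNIP1, KCNIP4 and KCNRG had means below the array medians in both groups.

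Among the 9 antisense, opposite-strand and noncoding genes 4 had positive and 5 negative values, and 0 passed by limma, with 2 at an unadjusted p under 0.05. KCNQ1DN, a noncoding gene of the imprinted KCNQ1 domain, was at 4.68, 4.64 and 4.38 on unexposed and 4.88, 5.06 and 4.95 on exposed arrays. Its groups did not overlap, with a gap of 0.20, and the log2 change was 0.39 (SE 0.12, interval 0.11 to 0.68) with limma adjusted p = 0.133. KCNQ1OT1, the long noncoding RNA of the same domain that silences neighbouring genes on the paternal chromosome, had a change of -0.12 (interval -0.46 to 0.22). The 3 nearest measured genes on each side of KCNQ1DN, KCNQ1OT1 among them, had changes of -0.12 to 0.10, and 0 of these 6 passed. This comparison too was chosen after the values were seen. It skips genes without a symbol in the annotation, KCNQ1 itself among them.

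ATP2A1-AS1, antisense to the calcium pump gene ATP2A1 of the endoplasmic reticulum, was at 6.09, 6.07 and 6.01 on unexposed and 5.80, 5.93 and 5.78 on exposed arrays. The highest exposed value was 0.08 below the lowest unexposed one. The log2 change was -0.22 (SE 0.09, interval -0.41 to -0.02) with limma adjusted p = 0.223. ATP2A1 itself was not among the named genes. Among the 3 nearest measured genes on each side, chosen after the values were seen, 0 of 6 passed. LAT (-0.26, interval -0.45 to -0.07) and SH2B1 (-0.16) were lower and SPNS1 (0.10) higher in exposed cells without overlap of the groups. Such separation held for 27.0% of all genes. It was also seen for STX4 (lower) beside ORAI3 and for TSSC4 (higher) and NAP1L4 (lower) beside KCNQ1DN. ATP2B1-AS1, named after a plasma membrane calcium pump, was at 5.14, 4.83 and 4.85 on unexposed and 4.47, 4.84 and 5.15 on exposed arrays. The exposed values lay on both sides of the unexposed ones, and the change was -0.12 (interval -0.54 to 0.31). Without exposed replicate 1 it was 0.06.

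The other antisense and opposite-strand genes, KCNAB1-AS1, KCNAB1-AS2, KCNJ2-AS1, KCNQ5-AS1 and TRPC5OS, had means below the array medians in both groups. KCNAB1-AS2 was at 2.24 ± 0.16 in unexposed and 2.48 ± 0.25 in exposed cells (SD, n = 3 each), a log2 change of 0.24 with an interval of -0.17 to 0.64. KCNAB1-AS1, named after the same potassium channel beta subunit gene, had a change of -0.09 (interval -0.47 to 0.30), which was 0.00 with arrays centred on ribosomal protein genes. KCNQ5-AS1 and KCNJ2-AS1 had changes of 0.12 and 0.03. TRPC5OS, which lies opposite the channel gene TRPC5 and is listed in RefSeq as protein coding, had a change of -0.11 (interval -0.46 to 0.24). How the array's probes keep the strands apart is not given in the sources used here, so a sense and an antisense signal at one locus may not be separable.

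Of 107 entries in 7 lists of genes that work with these channels 42 were measured, and 2 of them, RCAN3 and TPCN2, passed, both downward. That is 4.76% of the 42, beside 3.06% of all genes. Exposed and unexposed values did not overlap for 15 of the 42, and for 27.0% of all genes. TPCN2, a cation channel of endosomes and lysosomes that releases their calcium, was at 6.70, 6.74 and 6.65 on unexposed and 6.23, 6.17 and 6.15 on exposed arrays. Its groups stood well apart, and it fell by a log2 change of -0.51 (SE 0.07, limma adjusted p = 0.0298), with -0.42 and adjusted p = 0.0633 when arrays were centred on ribosomal protein genes. RCAN3, a regulator that binds calcineurin, was at 7.15, 7.44 and 7.13 on unexposed and 6.75, 6.37 and 6.62 on exposed arrays. All exposed values were below all unexposed ones, and it fell by a log2 change of -0.66 (SE 0.13, limma adjusted p = 0.0399). Leaving out single arrays gave -0.74 to -0.55 for RCAN3 (adjusted p = 0.0701 to 0.126) and -0.53 to -0.49 for TPCN2 (adjusted p = 0.0449 to 0.120).

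**Figure D3:**
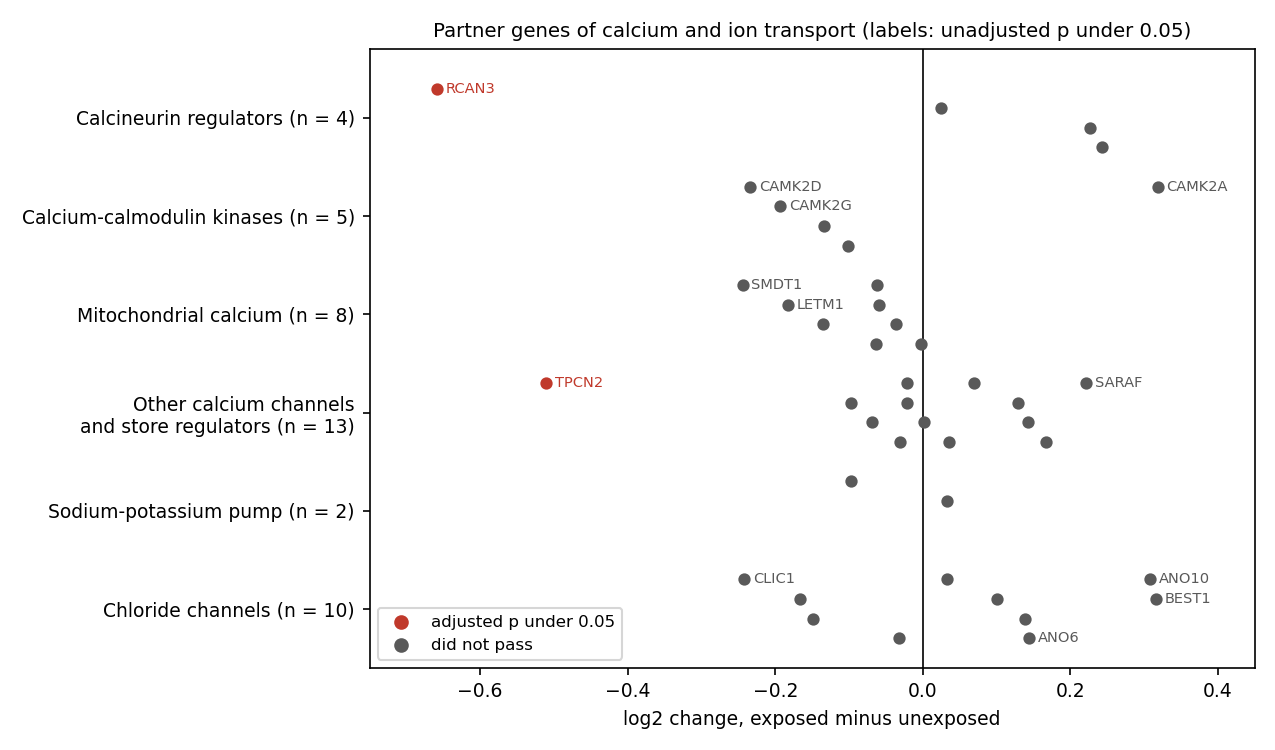
Each point is the log2 change, exposed minus unexposed, of 1 of 42 partner genes in 6 lists (n in brackets), red where the adjusted p is under 0.05 and named where the unadjusted p is under 0.05. RCAN3 (-0.66) and TPCN2 (-0.51) stand to the left of all others, and the rest lie between -0.24 and 0.32.

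The remaining partner genes did not pass, although CLIC1 did in 2 other settings (adjusted p = 0.0486 and 0.0435). In the list of other calcium channels and store regulators (13 of 18 measured, 7 positive), SARAF, which shuts off store-operated entry, went from 7.63 ± 0.02 to 7.86 ± 0.04 (SD, n = 3 each). Its groups did not overlap, and its change of 0.22 had limma adjusted p = 0.0954. Averaged over its probe sets the change of SARAF was smaller, 0.165 (limma adjusted p = 0.206). The polycystin PKD1 had a change of 0.17 and the stretch-activated channel PIEZO2 one of -0.10. Of 16 entries for calcineurin and NFAT 4 were measured, all of them calcineurin regulators. The NFAT, calcineurin subunit and calmodulin entries had no symbol in the annotation used. Of the 4, CABIN1 (0.24), RCAN1 (0.23), whose transcription NFAT can drive, and RCAN2 (0.03) had positive values.

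All 8 measured genes of mitochondrial calcium had negative values between -0.24 and 0.00, of which 2 turned positive after a further quantile normalization and 5 when arrays were centred on ribosomal protein genes. SMDT1, which couples the uniporter to its gatekeepers, was at -0.24, and the ion exchanger LETM1 at -0.18. Of 14 entries for calcium signal generators 5 were measured, all of them calcium-calmodulin kinases, and the phospholipase C entries were not. Among these 5 the delta and gamma forms CAMK2D and CAMK2G were at -0.23 and -0.19 and CAMK2A at 0.32. Among 10 measured chloride channel genes ANO10 (0.31) and ANO6 (0.14) were positive, and CLIC1 (-0.24) and TTYH2 (-0.17) negative. FXYD5 (-0.10) and FXYD6 (0.03), regulators of the sodium-potassium pump, were the 2 measured genes of the pump and exchanger list. Of the 15 voltage-gated calcium channel entries 0 had a symbol in the annotation used, which does not show that the array lacks them.

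**Figure D4:**
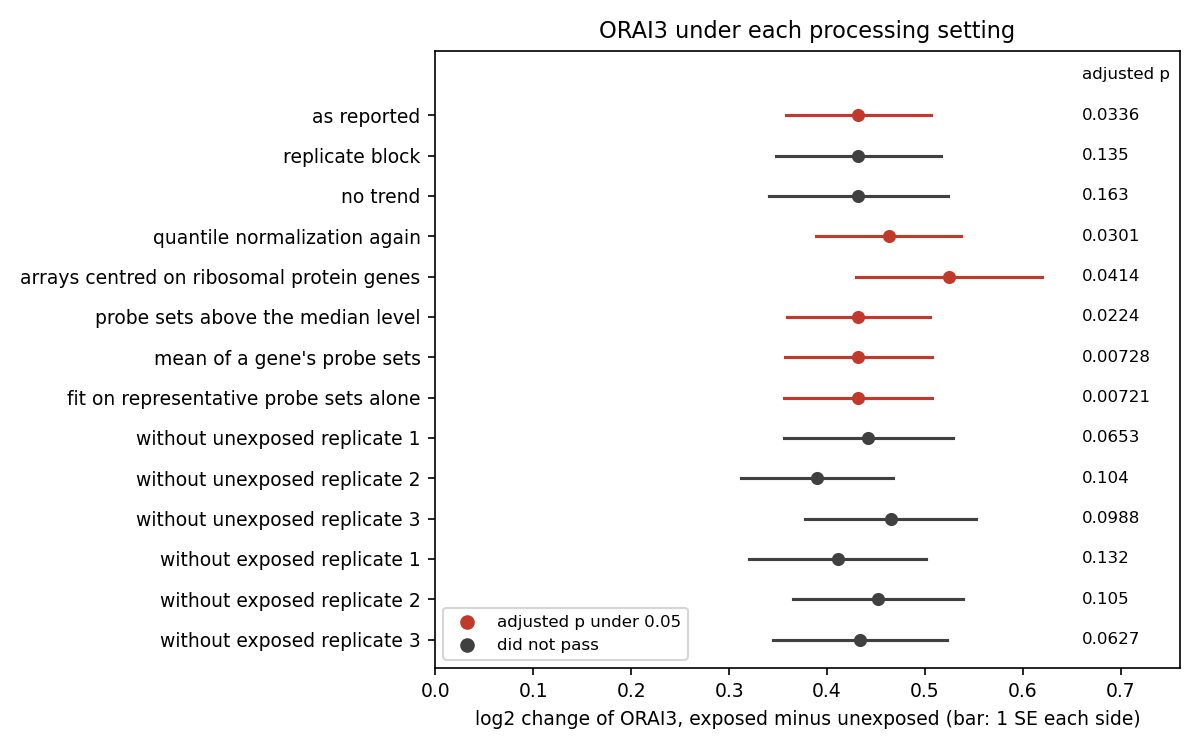
Points are the log2 change of ORAI3, exposed minus unexposed, with 1 SE on each side, as reported and under 13 other settings, with the adjusted p printed at the right. The change stays between 0.39 and 0.52 throughout, and the adjusted p is under 0.05 (red) in 5 of the 13 other settings, none of which leaves out an array. ORAI3 has 1 probe set, so the block, the trend and the choice of probe sets could not move its change, only its SE and p. The renormalized, centred and leave-one-out settings could move it.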

How the data were processed

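The authors deposited 1 table of log2 expression values after RMA, made per the submitters' processing notes with Affymetrix Expression Console 3.0 and Transcriptome Analysis Console 3.0. Further settings, such as the summary level, are not stated there. RMA gives all arrays a like distribution, so a change in total RNA per cell would not show, and precision is limited by the 6 arrays. Of 53617 probe sets 16098 had 1 gene symbol, 0 had several and 37519 had none here, and each of the 14884 genes was taken at its probe set with the highest mean over the 6 arrays. The build used for the array is not given, so RefSeq served for names, neighbours and promoters alone.

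limma 3.58.1 (R 4.3.3) was fitted to all probe sets, exposed minus unexposed, without covariates or a filter (lmFit, then two-sided eBayes tests with a trend of variance on level). P-values were adjusted by Benjamini-Hochberg over the 14884 genes, with a threshold of 0.05. The procedure was also run on simulated arrays with known changes and independent noise. Those arrays hold no effect of the box or of a single array, so they say nothing about such effects here. Exact permutation tests used SciPy 1.17.1 and figures matplotlib 3.10.9.

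The 22 genes and the partner lists were chosen with earlier results of these data known. Named genes were all 22 and, in each partner list, those past the threshold and the 2 with the smallest p in each direction. LAT, SH2B1, SPNS1, STX4, TSSC4, NAP1L4 and RCAN2 were named after their values were seen. The cell type markers named singly were also outside this rule. Alternatives were a replicate block, no trend, further quantile normalization, centring on 45 ribosomal protein genes, a filter on dim probe sets, averaging the probe sets of each gene, a fit on representative probe sets alone, and each array left out in turn. Same-numbered arrays did not vary together (correlations of deviations -0.025 to 0.010), so the numbers were not taken to pair them.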

Additional observations from a re-analysis of the deposited data

How the results depend on the processing

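The log2 change of ORAI3 was positive in all 13 other settings, but its call was lost, and the count of the 22 genes past the threshold went from 1 to 0 (0 higher, 0 lower), with the replicate block (ORAI3 adjusted p = 0.135), without a mean-variance trend (0.163) and without any 1 array. With the replicate block the counts were also 0 for partner genes and 0 of all genes by limma (2286 at an unadjusted p under 0.05, 2 of the 22 among them), and without a trend they were again 0 and 0 (2220 and 2). The numbers share only a label here, so the block is not a test of pairs. With an array left out, partner genes past the threshold numbered 0 to 1, and all genes 0 to 325, with 2065 to 2776 at an unadjusted p under 0.05. Against 456 of all 14884 genes, 753 passed when dim probe sets were left out, which left 10712 genes and 12 of the 22. Over all 14884 genes, 1173 passed when the probe sets of each gene were averaged and 1209 when the model was fitted to the representative ones only. In these last 2 settings CLIC1 passed as well (adjusted p = 0.0486 and 0.0435), which made 3 partner genes.

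With arrays centred on ribosomal protein genes all genes shifted by a median of 0.09, 254 genes and 1 partner gene passed, and the median over the 22 genes was 0.11. In that setting KCNAB1-AS1 (0.0042), ORAI1 (0.0456), RYR1 (0.0590), RYR2 (0.0352) and STIM1 (0.0915) turned positive, and STIM1 was at 0.0358 after a further quantile normalization. With single arrays left out the sign also changed for ATP2B1-AS1 (-0.283 to 0.0562), KCNAB1-AS1 (-0.184 to 0.0218), KCNIP2 (-0.0628 to 0.129), KCNIP4 (-0.0631 to 0.160), KCNJ2-AS1 (-0.000938 to 0.0455), KCNQ5-AS1 (-0.0353 to 0.195) and KCNRG (-0.0164 to 0.145). It changed as well for ORAI1 (-0.105 to 0.0135), ORAI2 (-0.0599 to 0.0553), RYR1 (-0.0662 to 0.0287), RYR2 (-0.126 to 0.0314), STIM1 (-0.0344 to 0.0377), STIM2 (-0.0368 to 0.0381) and the partners FXYD6 (-0.0100 to 0.0992) and RCAN2 (-0.141 to 0.156). The cause was not tested. In all, 9 of the 22 genes kept their sign in every setting run. For 10 dim genes signal over background limits what can be seen.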
